A study of Bos taurus with 12 samples.

Results

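The sites described here were CpG cytosines that lay outside genes, more than 50 kb and at most 200 kb from the nearest annotated transcription start, in the blood DNA of dairy cows. They were chosen by the annotation of the deposited site table alone, as rows annotated distal intergenic with an absolute distance to the start in that range. This gave 41794 sites, which was 21.3% of the 196275 sites listed. The distal intergenic sites up to 50 kb from a start numbered 46583 and those beyond 200 kb numbered 25908, and these were the classes most like it.

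Blood was collected from cows kept under the same conditions on one farm, and the DNA was read by enzymatic methylation sequencing. The Mastitis Susceptible Group (MSG) held 6 cows that were culled within 1 year of sampling because of mastitis complications that were not yet recognised at sampling. The Mastitis Resilient Group (MRG) held 6 cows of similar age distribution that were still in the herd after that year. The labels give no treatment, batch, breed or age in numbers, and both groups were formed after the blood had been drawn. Every listed site had already been selected by the authors for a difference between these same 12 cows: in the authors' deposited table the smallest absolute difference at the 41794 sites was 25 percentage points and the largest q-value was 0.01. The counts and tests below therefore describe a selected list and are not independent evidence that the groups differ.

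In mammals most CpG cytosines between genes are methylated, and stretches of low or intermediate methylation there often mark enhancers and other distal elements, where transcription factors bind. Such an element can act on a gene far away, and the gene nearest to it need not be the one it acts on. After a cell divides, the maintenance methyltransferase copies methylation from the old strand to the new one, so that the cytosines of a CpG on opposite strands usually carry the same state. Bovine blood DNA comes from white blood cells, which are a mixture of lymphocytes, monocytes and granulocytes, and a change in the proportion of a cell type cannot be told apart here from a change of methylation within it. No expression was measured, so the labelled tissue could not be checked against marker transcripts. Where a cow carries a thymine in place of a cytosine, this assay reads it like an unmethylated cytosine. No genotypes were used, and the part of sequence variants in any value below was not tested.

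Methylation at these sites was higher in MSG at 21849 sites and lower in MSG at 19945 sites, so that 52.3% were higher in MSG. The share was 53.4% in the sites up to 50 kb, 52.5% in the sites beyond 200 kb and 52.7% over all listed sites. Split by distance in steps of 25 kb, it was 52.9% of 11869 sites at 50 to 75 kb and 53.5% of 4017 sites at 175 to 200 kb, with a low of 50.5% at 125 to 150 kb. The split of directions thus differed little with distance. It depended on the size of the difference, since among sites with a difference of at least 40 points only 48.5% were higher in MSG.

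The bounds of the class cut through no visible step. The 571 intergenic sites at 49 to 50 kb had a median absolute difference of 32.9 points, and the 520 sites at 50 to 51 kb had 32.6 points. At the outer bound, 61.2% of the 139 sites at 199 to 200 kb and 62.5% of the 136 sites at 200 to 201 kb were higher in MSG. Of the 41794 sites, 23061 lay upstream and 18733 downstream of the start nearest to them, and 51.8% and 52.9% of these were higher in MSG. The plus strand held 20978 sites and the minus strand 20816.

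The values did not gather around a common mean. A site was listed at exactly 0 in 22.0% of the values of MSG cows and 22.2% of the values of MRG cows. Values over 0 and up to 20% made up only 2.28% in MSG and 2.94% in MRG. Values over 20 and up to 40% made up 12.9% in MSG and 13.8% in MRG, and values over 60 and up to 80% made up 10.5% and 10.8%. Values over 40 and up to 60% made up 17.7% in MSG and 17.6% in MRG, and values over 80% but under 100% made up 20.2% in MSG and 18.1% in MRG. A value of exactly 100% was listed for 14.4% of MSG values and 14.5% of MRG values. The commonest level in either group was therefore exactly 0, and a thinly filled range separated it from the higher values. Intermediate and high values at single sites were not separated by a like gap.

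**Figure D1:**
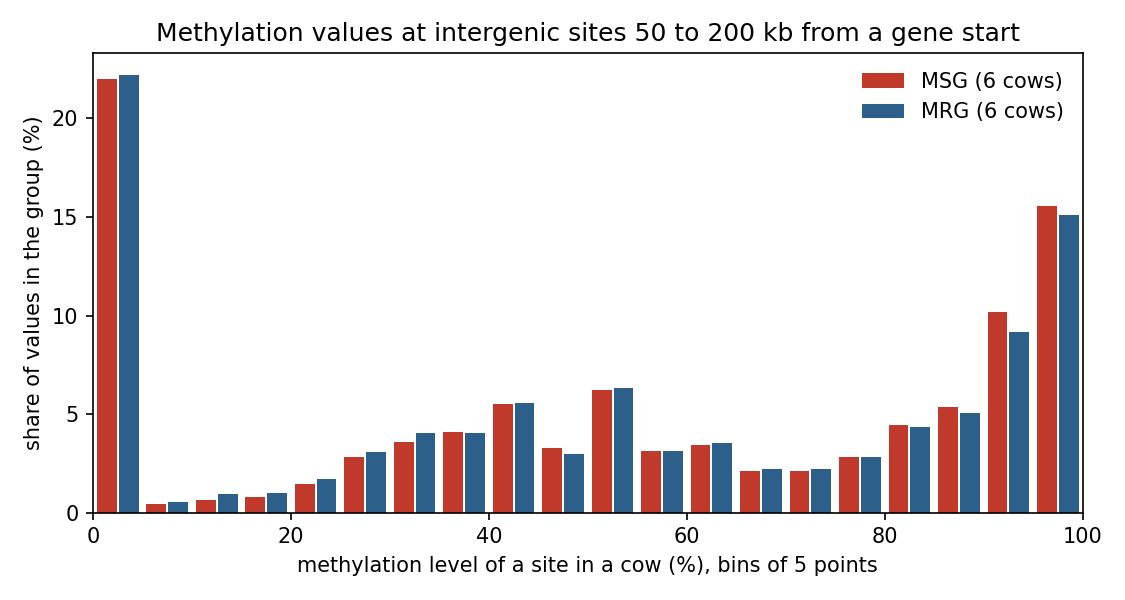
Share of all values (y axis, percent of the values of a group) by methylation level of a site in a cow (x axis, bins of 5 percentage points), for MSG in red and MRG in blue. Both groups have a peak at 0, which holds 22.0% of MSG and 22.2% of MRG values, few values just above it, a broad middle range and a second peak near 100%.

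Zeros were spread over most of the class. In all, 33205 sites (79.4%) had a cow listed at 0, compared with 78.3% of all listed sites. At 9382 sites exactly 1 cow was at 0, at 2686 sites 6 cows were, and at 133 sites 10 cows were. Among the 21849 sites higher in MSG, zeros occurred in MRG cows alone at 9868 sites (45.2%) and in MSG cows alone at 82 sites. Among the 19945 sites lower in MSG, zeros occurred in MSG cows alone at 9311 sites (46.7%) and in MRG cows alone at 57 sites. Zeros occurred in both groups at 6837 of the sites higher in MSG and 7050 of those lower in MSG, and in neither group at 5062 and 3527. Where zeros were confined to 1 group, it was nearly always the group with the lower mean. All MSG cows with a value were at 0 at 882 sites, and all MRG cows with a value were at 0 at 778 sites.

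The median site mean was 73.6% in MSG and 37.5% in MRG for the sites higher in MSG. For the sites lower in MSG it was 34.9% in MSG and 72.0% in MRG. Cows within a group varied almost as much as the groups differed: the median SD within a group was 27.6 points, beside a median absolute difference of 32.7 points. Over all listed sites these medians were 27.7 and 32.7 points.

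The groups did not overlap, meaning that every cow of one group lay above every cow of the other, at 981 of the 41794 sites (2.35%), beside a background of 2.36% over all listed sites. Of these, 592 were higher in MSG, beside a background of 1.39% of all sites, and 389 were lower in MSG, beside a background of 0.971%. These shares were near the background. A cow at 0 occurred at 478 of the 981 sites. Sites beyond 200 kb had 703 such sites (2.71%).

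With limma, a moderated linear model fitted over all 196275 sites with Benjamini-Hochberg adjustment, 0 of the 41794 sites had an adjusted p below 0.05, and the background was also 0%. The lowest adjusted p in the class was 0.0781, and the exact permutation test, adjusted in the same way, also gave 0. At an unadjusted p below 0.05, limma counted 21810 sites (52.2%), beside a background of 51.9%, in a table that the authors had already filtered on this difference. Fitted only over listed sites with no cow at 0, limma gave an adjusted p below 0.05 at 6398 of 8589 sites (74.5%), beside a background of 73.1%. Of these, 3834 were higher in MSG and 2564 lower. Missing cows were dropped from the fit of the site concerned, and all 12 cows had a value at 34622 of the 41794 sites.

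CpGs with both strands listed allowed each value to be read a second time. In 9000 CpGs both cytosines belonged to the class, and the direction was the same on both strands in all 9000. Over 105243 pairs of values the correlation between strands was 0.932, a description of cytosines that shared cow and library, and the median gap was 5.88 points. In 25565 pairs both strands were at 0, while in 887 pairs only 1 strand was. In those 887 the other strand had a median of 8.33%, and it stood at 50% or more in 61. Where both strands were listed, the zeros of a cow were therefore nearly always present on both. Both cytosines of such a CpG had passed the authors' selection, so the agreement between strands is not independent of it. The 23784 sites (56.9%) with no listed partner could not be checked in this way. A cow at 0 was listed at 86.0% of the sites with a listed partner and at 74.5% of those without.

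Directions were shared along the chromosome as well as between strands. Successive sites of the class 2 to 100 bases apart had the same direction in 89.9% of 2384 pairs. The share was 84.6% at over 100 to 1000 bases, 74.0% at 1 to 10 kb, 60.7% at 10 to 100 kb and 52.0% for 3701 pairs more than 100 kb apart. If directions of neighbours were unrelated it would be 50.1%. The sharing of direction was thus strongest between close sites and fell with distance.

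**Figure D2:**
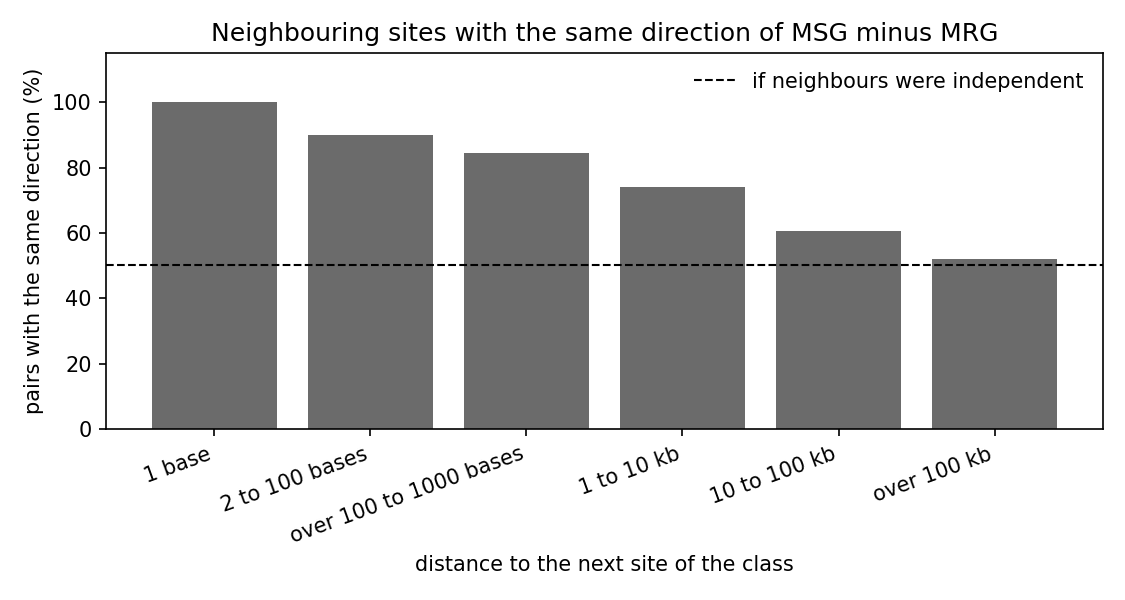
Share of successive sites of the class with the same direction of MSG minus MRG (y axis, percent of pairs) by the distance between them (x axis). The share is 100% at 1 base, 84.6% at over 100 to 1000 bases and 52.0% beyond 100 kb, and the dashed line at 50.1% is the share for unrelated directions.

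The sites were spread unevenly over the genome. They lay in 2002 windows of 1 Mb with a median of 11 sites, and the 100 fullest windows held 11383 of them (27.2%). Of the 675 windows with at least 20 sites, 54 had 90% or more of their sites higher in MSG, 36 had 10% or fewer higher, and 182 lay between 40 and 60%. The fullest window, at 134 to 135 Mb of chromosome 2 near ACTL8, IGSF21 and LOC536229, held 490 sites, 181 higher and 309 lower in MSG. Other full windows lay at 118 to 119 Mb of chromosome 5 (262 sites, 133 higher), in the first Mb of chromosome 28 near RHOU (203 sites, 30 higher), and at 22 to 23 Mb of chromosome 1 near SAMSN1 (182 sites, 72 higher).

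Chromosomes differed in the split of directions. Chromosome 1 held most sites (4402, 49.8% higher in MSG). Chromosome 9 had 39.7% of 2760 sites higher in MSG, whereas chromosome 7 had 65.6% of 925 and chromosome 4 had 64.7% of 1275. Windows and chromosomes hold linked sites, so these shares rest on far fewer separate loci than sites.

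To join close sites, which share reads, listed sites closer than 1 kb to the next were joined into runs, and runs of at least 5 sites were tested as 1 mean per cow. Of 5332 such runs in the table, 1160 had most of their sites in the class, with 8601 of its sites, a median length of 1233 bases and a median absolute difference of 33.2 points. In 823 of the 1160 (70.9%) every site had the same direction, compared with 70.0% of all runs. A further 13977 sites (33.4%) had no listed neighbour within 1 kb.

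Of the 1160 runs, 422 (36.4%) had a limma adjusted p below 0.05, with Benjamini-Hochberg adjustment over all 5332 runs, beside a background of 36.1%. MSG was higher in 216 of the 422 and lower in 206. The exact permutation test over the 924 regroupings of the cows, adjusted in the same way, called 0 of the 1160 runs. An unadjusted limma p below 0.05 was found in 771, a count without a share over all runs to set beside it. The count of 422 by adjusted p became 173 without MSG replicate 1 and 158 without MSG replicate 2. It was also more than 1.5 times lower without MSG replicates 3 or 6 (187 and 190) or MRG replicates 1, 2, 3 or 5 (187, 184, 266 and 171). Since sites 1 to 10 kb apart shared their direction in 74.0% of pairs, runs are not all separate loci. In 38 runs (3.28%) the groups did not overlap, beside 3.92% of all runs.

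Cows took separate levels over whole runs. The mean over a run was under 10% in 18.7% of the values of MSG cows and 19.3% of those of MRG cows. It lay at 10% to under 30% in 6.84% of MSG and 6.78% of MRG values, and at 30% to under 60% in 39.8% of MSG and 39.2% of MRG values. It lay at 60% to under 75% in 7.57% of MSG and 7.46% of MRG values. It was 75% or more in 27.1% of MSG and 27.2% of MRG values. The middle level was the commonest, and the range between the lowest and the middle level was thinly filled in both groups.

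A long stretch with this pattern lay on chromosome 2, from 134092390 to 134119251 in ARS-UCD1.2, around the run with most sites, and was chosen after its values were seen. It is intergenic, 62.7 to 80.3 kb from the nearest start, and LOC536229 is the nearest symbol to part of it. It held 133 listed sites over 26.9 kb, all of the class, of which 132 were lower in MSG and 131 had a cow at 0. The mean of a cow over these sites was 1.52, 3.07, 2.56, 1.45, 1.99 and 41.6% in MSG replicates 1 to 6. In MRG replicates 1 to 6 it was 2.59, 83.2, 46.6, 46.2, 86.6 and 47.4%. In MSG 5 cows were near 0 and 1 was intermediate, whereas in MRG 1 cow was near 0, 3 were intermediate and 2 were high, so the groups overlapped.

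**Figure D3:**
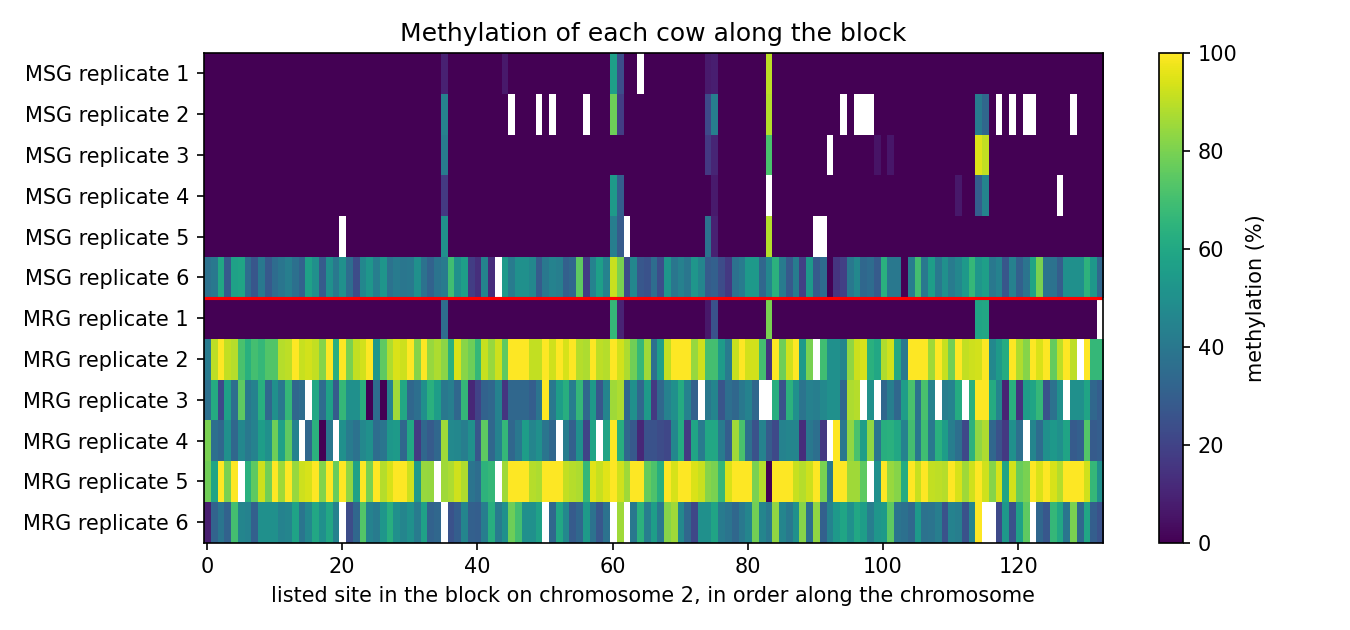
Methylation (colour, percent) of each cow (rows, MSG above and MRG below the red line) at the 133 listed sites of the block on chromosome 2 (x axis, sites in order along the chromosome, white where a cow has no value). A cow keeps its level along nearly the whole block: MSG replicate 6 averages 41.6% and the other MSG cows 3.07% or less, while MRG cows average 2.59% to 86.6%.

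A window with a like arrangement, also picked after its values were seen, lay at 123 to 124 Mb of chromosome 1, with 155 of 159 sites lower in MSG. Its cows averaged 2.70, 39.3, 37.0, 2.84, 35.4 and 38.2% in MSG replicates 1 to 6. In MRG replicates 1 to 6 they averaged 77.4, 80.9, 44.2, 41.7, 44.2 and 76.5%. MSG cows were near 0 or intermediate there and MRG cows intermediate or high.

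The stretch on chromosome 2 held 3 of the tested runs. The first named run near LOC536229, with 30 sites at 134092390 to 134096870, averaged 6.90% ± 16.9 in MSG and 51.5% ± 31.8 in MRG (mean ± SD of 6 cows each, limma adjusted p 0.0391). The next, with 27 sites at 134098706 to 134103989, averaged 7.87% ± 16.1 in MSG and 50.8% ± 32.0 in MRG (limma adjusted p 0.0400). The third had the most sites of any run of the class, 63 at 134111736 to 134119251, and no symbol, and it averaged 9.28% ± 15.8 in MSG and 52.7% ± 29.7 in MRG (limma adjusted p 0.0383). Being parts of the same stretch, the 3 runs repeat the same cows' levels. None of the 3 passed without MSG replicates 1, 2 or 3 or MRG replicates 2 or 5.

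Of the 12 runs named by rule, 8 passed limma, 5 lower and 3 higher in MSG, and none of the 12 had groups without overlap. The rule took the 6 with most sites in each direction among runs with a symbol nearest to most of their sites. Runs without such a symbol were passed over. Among these were runs of 29 sites on chromosome 9 (27 higher in MSG) and 26 sites on chromosome 11 (24 higher). The 12 named runs held 289 sites, of which 287 had a cow at 0. Their adjusted p by the exact permutation test lay between 0.0622 and 0.137. The plot of run means by cow shows all of them.

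**Figure D4:**
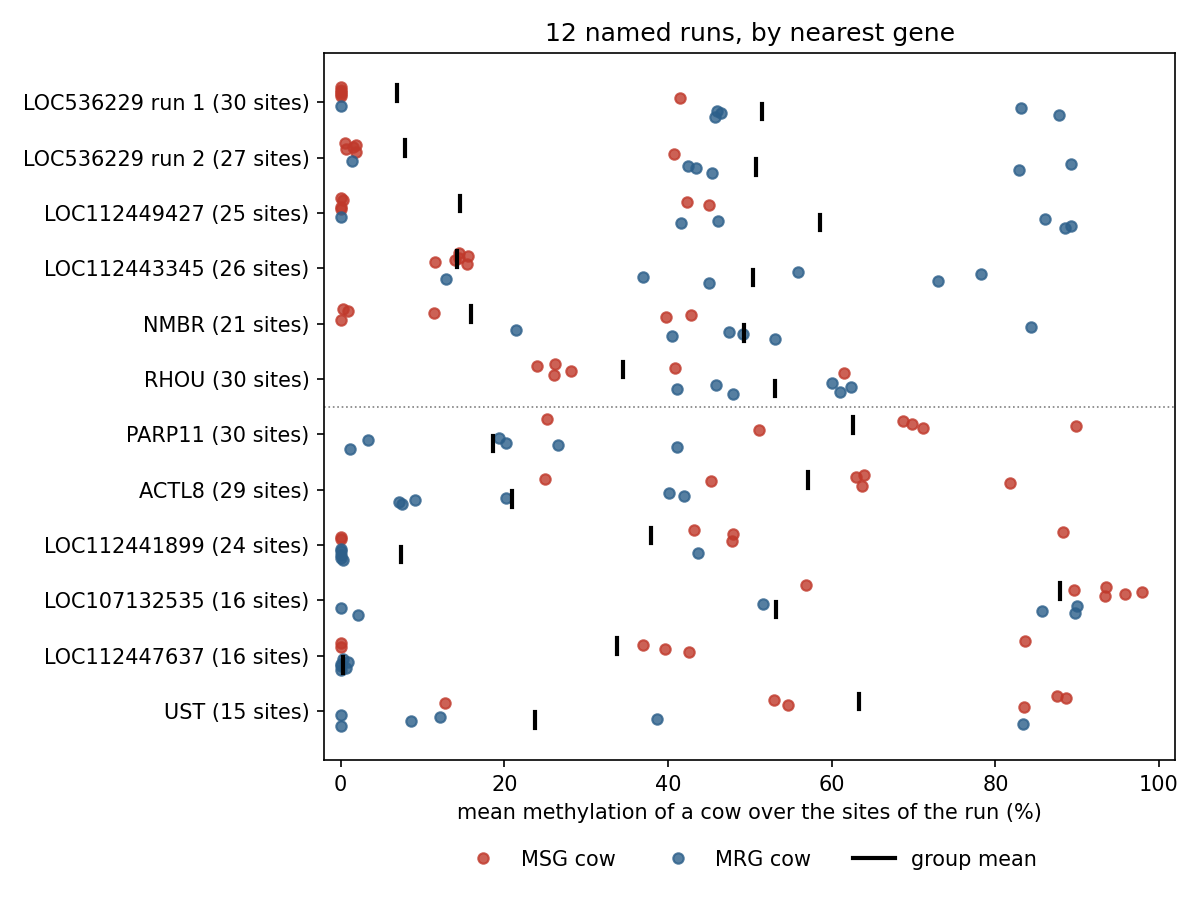
Mean methylation of each cow (x axis, percent) over the sites of the 12 named runs (y axis, nearest gene and number of sites), MSG in red above MRG in blue, with a bar at each group mean. Runs above the dotted line are lower in MSG and those below it are higher in MSG, and in each run at least 1 cow of one group lies within the range of the other.

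The run near PARP11, a mono-ADP-ribosyltransferase, had 30 sites on chromosome 5 at 106033142 to 106037596, 74.9 to 79.3 kb from the start. The lowest, median and highest cow were at 25.2, 69.2 and 89.9% in MSG and at 1.11, 19.8 and 41.1% in MRG. All MSG cows but the lowest stood above every MRG cow. The run averaged 62.6% ± 22.1 in MSG and 18.6% ± 14.9 in MRG (mean ± SD of 6 cows each, limma adjusted p 0.0296), and it passed limma whichever cow was left out.

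The run near ACTL8, an actin-like gene known for expression in testis, had 29 sites on chromosome 2 at 134761223 to 134768787, 27 of them higher in MSG. It averaged 57.1% ± 19.5 in MSG and 21.0% ± 16.3 in MRG (mean ± SD of 6 cows each, limma adjusted p 0.0381). The lowest, median and highest cow were at 25, 63.3 and 81.8% in MSG and at 7.13, 14.6 and 41.9% in MRG. MSG replicate 3 was the cow that reached into the MRG range. The call was lost without MSG replicates 1, 2 or 6 or MRG replicate 5.

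The run near LOC112447637 on chromosome 7, 28011291 to 28012699, had 16 sites. Its lowest, median and highest cow were at 0, 38.3 and 83.7% in MSG and at 0, 0.120 and 0.893% in MRG. All MRG cows were near 0, as were MSG replicates 2 and 4. The run averaged 33.8% ± 31.3 in MSG and 0.300% ± 0.390 in MRG (mean ± SD of 6 cows each, limma adjusted p 0.0477), and it passed only without MSG replicate 2 or 4, and with all 12 cows.

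The run near LOC112443345 on chromosome 21, 61992006 to 61996876, had 26 sites, 22 of them lower in MSG. The MSG cows lay close together, with the lowest, median and highest at 11.5, 14.5 and 15.5%, whereas the MRG cows spread over 12.9, 50.5 and 78.2%. MRG replicate 4 was the cow within the MSG range. The run averaged 14.2% ± 1.45 in MSG and 50.4% ± 24.2 in MRG (mean ± SD of 6 cows each, limma adjusted p 0.0375), a call that was lost without MRG replicates 2 or 5.

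The run near NMBR, the receptor of the peptide neuromedin B, had 21 sites on chromosome 9 at 79449455 to 79453288, all lower in MSG. It averaged 15.9% ± 20.2 in MSG and 49.3% ± 20.5 in MRG (mean ± SD of 6 cows each, limma adjusted p 0.0431), and the call was lost in 9 of the 12 leave-one-out fits, holding without MSG replicates 4 or 5 or MRG replicate 2. The run near LOC112449427 on chromosome 13, 68960038 to 68964295, averaged 14.6% ± 22.5 over 25 sites in MSG and 58.6% ± 36.0 in MRG (limma adjusted p 0.0450), and its call held without MSG replicate 4 or MRG replicates 1 or 4. The groups overlapped at intermediate levels in the run near NMBR, and at low and intermediate levels in the run near LOC112449427.

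The other 4 named runs did not pass. Near RHOU, 30 sites on chromosome 28 averaged 34.5% ± 14.6 in MSG and 53.0% ± 9.17 in MRG (mean ± SD of 6 cows each, limma adjusted p 0.0746), with 9 of the 30 higher in MSG. Near UST, a sulfotransferase that modifies glycosaminoglycans, 15 sites averaged 63.3% ± 29.6 in MSG and 23.8% ± 32.5 in MRG (limma adjusted p 0.0577). The runs near LOC112441899 and LOC107132535 had adjusted p of 0.0754 and 0.0798 with limma, and their means were 37.9 and 87.9% in MSG and 7.33 and 53.2% in MRG.

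Separation between groups was also read at single sites without a cow at 0. Of the 981 sites with no overlap between groups, 349 had values for all 12 cows and no cow at 0, and of these 245 were higher and 104 lower in MSG, nearest to 175 named genes. The like split over all listed sites is not given. Since they were picked for having no overlap, their values and the p-values below are a description and no test. In the fit over sites with no cow at 0, the 10 named by rule had limma adjusted p between 0.0230 and 0.0252, and in the fit over all sites between 0.0781 and 0.0813.

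The sites lower in MSG came first by rule near 5 genes. Near GPR65, a proton-sensing receptor of white blood cells, the site at 99804059 on chromosome 10, 61.7 kb downstream of the start, had 23.1, 44.0 and 66.7% as lowest, median and highest in MSG and 100% in every MRG cow. Near MBL2, the mannose-binding lectin that starts the lectin pathway of complement, the site at 6441637 on chromosome 26 had 18.8, 42.2 and 76.9% in MSG and 85.7, 95.8 and 100% in MRG. Near UGT8, an enzyme of galactosylceramide synthesis, the site at 10855801 on chromosome 6 averaged 44.1% ± 18.0 in MSG and 87.3% ± 10.2 in MRG (mean ± SD of 6 cows each). MSG cows were intermediate and MRG cows high at these sites, and also at the sites near C19H17orf67 (51.3% ± 25.7 in MSG and 98.8% ± 2.92 in MRG) and LOC101902293 (52.2% ± 29.3 in MSG and 98.1% ± 2.88 in MRG).

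The sites higher in MSG showed the reverse arrangement. Near GPAT3, an acyltransferase of triglyceride synthesis, the site at 98377432 on chromosome 6 had 95.7, 100 and 100% as lowest, median and highest in MSG and 30.8, 46.9 and 55.6% in MRG. Near ADAMTS5, a protease that cleaves aggrecan, the site at 9378991 on chromosome 1 had 73.7, 87.3 and 95.2% in MSG and 16.7, 31.8 and 44.4% in MRG. Near ESR1, the oestrogen receptor alpha gene, the site at 88699847 on chromosome 9 averaged 97.1% ± 4.63 in MSG and 47.7% ± 22.5 in MRG (mean ± SD of 6 cows each), with MRG replicate 2 at 89.5%. The sites near PARM1, a mucin-like membrane protein (98.3% ± 4.08 in MSG and 42.6% ± 20.1 in MRG), and LOC505199 (93.8% ± 6.19 in MSG and 39.7% ± 22.6 in MRG) followed the same pattern of high MSG cows and mostly intermediate MRG cows.

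The deposited tiles of 500 bases gave a second summary of the same reads. Of 1227 tiles, 298 held at least 1 site of the class, and they covered 965 sites (2.31%). Where a tile held a site, the direction was the same in all 1175 placements, which outnumber the 965 sites because tiles overlap. Tiles and sites share reads and were both selected by the authors for a difference, so this agreement is largely built in. Overlapping tiles are not separate loci. Of the 298 tiles, 218 (73.2%) had a limma adjusted p below 0.05 over all tiles, beside a background of 73.3%, with 125 higher and 93 lower in MSG. The exact permutation test called 34, a count given without a share over all tiles. In 12 tiles (4.03%) the groups did not overlap, beside a background of 6.03%. The limma count was between 92 and 139 without MSG replicates 1, 2, 3 or 6 or MRG replicates 1, 2, 3 or 5, one at a time.

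The tiles named here were picked for having no overlap and large differences, so their separation and p-values are a description. Among the tiles with no overlap, the tile 185 kb downstream of KCNJ2, an inwardly rectifying potassium channel gene, lay on chromosome 19 at 60433251 to 60433750. Its lowest, median and highest cow were at 66.3, 78.0 and 90.6% in MSG and at 38.0, 43.1 and 59.6% in MRG. The tile averaged 77.6% ± 7.86 in MSG and 46.4% ± 8.91 in MRG (mean ± SD of 6 cows each, limma adjusted p 0.0347), with every MSG cow above every MRG cow. A tile on chromosome 1 at 136431001 to 136431500, with no symbol, averaged 29.8% ± 4.39 in MSG and 73.0% ± 15.7 in MRG (mean ± SD of 5 cows each). Tiles with no symbol on chromosome 22 (41844751 to 41845250) and chromosome 24 (22095501 to 22096000) averaged 51.9% ± 10.9 and 37.6% ± 12.6 in MSG and 87.3% ± 13.4 and 69.9% ± 11 in MRG. The tile near COL1A2, a chain of type I collagen, averaged 86.1% ± 5.99 in MSG (n = 5) and 58.3% ± 15.3 in MRG (n = 6), and its limma call was lost without MSG replicates 1 or 3 or MRG replicate 1.

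The tiles near LOC505199 and FTH1, the ferritin heavy chain gene, averaged 84.9 and 63.2% in MSG and 48.5 and 92.4% in MRG. The call of the FTH1 tile was lost without MSG replicates 1 or 3. A tile near LOC112449427 averaged 46.4% ± 28.0 in MSG and 17.5% ± 4.46 in MRG (mean ± SD of 6 cows each, limma adjusted p 0.0377) and was higher in MSG, while the run near the same symbol was lower in MSG. That tile passed limma in 5 of 12 leave-one-out fits, without MSG replicates 1, 3, 4 or 6 or MRG replicate 4.

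A gene symbol was given for 67.3% of the sites. They named 2831 genes, with a median of 4 sites per gene, 611 genes with 1 site and 834 with at least 10. The 8 genes with most sites carried 92 to 187 each. Most of these sites had a cow at 0, from 90.3% near LOC107132535 to 100% near ARPP21, beside 79.4% of the class. Whether cows kept their levels along these stretches, as over the runs, was not tested.

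Near RHOU, 167 of 187 sites were lower in MSG, and over these 167 the lowest, median and highest cow were at 0.497, 24.7 and 90.2% in MSG and at 48.9, 78.7 and 90.3% in MRG. The MSG cows spanned nearly the whole scale, while no MRG cow lay below 48.9%. Near IGSF21, a synaptic adhesion gene of the immunoglobulin superfamily, 81 of 138 sites were lower in MSG, and cows were at 0, 40.8 and 82.9% in MSG and at 78.3, 83.7 and 88.5% in MRG. Near LOC112443345, 137 of 158 were lower in MSG (8.65% ± 10.4 in MSG and 51.2% ± 23.0 in MRG, mean ± SD of 6 cows each).

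The other 5 genes had more sites higher in MSG. Near ACTL8, 112 of 160 sites were higher in MSG (64.3% ± 19.2 in MSG and 23.2% ± 16.8 in MRG). Near ARPP21, a phosphoprotein gene of neurons that hosts a microRNA, 77 of 92 were higher in MSG (62.0% ± 26.5 in MSG and 16.5% ± 12.9 in MRG). Near KCNJ2, 72 of 117 were higher in MSG (62.2% ± 14.5 in MSG and 23.7% ± 20.2 in MRG). Near LOC107132535 it was 121 of 134, and near LOC112447637 106 of 118, where the MRG cows stayed between 1.0 and 2.95% and the MSG cows spread from 2.30 to 81.6%. These sites were averaged by their own direction, so the group difference is built in and has no test.

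Genes of known function were read from 17 lists, which together named 766 genes, of which 200 were the nearest gene of 2293 sites (5.49%). Over the whole class 52.3% of sites were higher in MSG, the median difference was 22.4 points and 2.35% of sites had no overlap, and over all listed sites the median difference was 22.7 points. Since the authors' deposited table lists only differences of at least 25 points, a list's median mainly follows which direction has the majority. Levels given for a gene are averaged over its sites of the majority direction, so the order of the groups in them is built in. No list is tested, and none of the sites near its genes passed limma over all sites.

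The lists of cytokines and of chemokines, each with its receptors, had more sites lower in MSG, but most sites of each lay near 1 gene. These genes were TGFBR2 (62 of 66 sites lower) and CXCR4 (53 of 78 lower), so neither lean describes its list as a whole. Of the 122 sites near 12 genes of cytokines and their receptors, 33 were higher and 89 lower in MSG (median difference -30.3 points, 1 with no overlap), and TGFBR2, a receptor of TGF-beta, held 66 of the 122. The 62 lower sites near TGFBR2 were at 4.13, 23.5 and 58.4% in the lowest, median and highest MSG cow and at 26.1, 78.8 and 90.2% in MRG cows. Near IL15, which maintains natural killer and memory T cells, 11 of 14 sites were lower in MSG (54.6% ± 29.3 in MSG and 83.1% ± 7.87 in MRG). Near IFNGR1, the interferon gamma receptor, 8 of 10 were higher in MSG.

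Of the 116 sites near 4 genes of chemokines and their receptors, 48 were higher and 68 lower in MSG (median difference -28.4 points), and 8 (6.90%) had no overlap, all of them near CXCR4. CXCR4, the receptor that holds leukocytes in the marrow through CXCL12, was nearest to 78 of the 116 sites, 25 higher and 53 lower. Over the 53 lower sites the lowest, median and highest cow were at 6.78, 14.2 and 38.7% in MSG and at 41.3, 60.2 and 62.3% in MRG. Near CXCL12, 14 of 24 sites were higher in MSG, and near CXCL13, a chemokine that attracts B cells, 8 of 11 were.

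Signalling of the NF-kappaB, MAPK and JAK-STAT pathways had 118 sites, 52 higher and 66 lower in MSG (median difference -27.9 points, 3 with no overlap). Near TNFAIP3, a ubiquitin-editing inhibitor of NF-kappaB, 37 of 47 sites were lower in MSG, at 22.8% ± 20.6 in MSG and 59.8% ± 17.0 in MRG. Near SOCS6, of the suppressors of cytokine signalling, 19 of 23 were lower in MSG, and near MAP3K7, a kinase upstream of NF-kappaB, 21 of 22 were higher. Innate sensing had 43 sites, 26 higher and 17 lower in MSG (median difference 28.6 points, 1 with no overlap), with 16 of the 21 sites near TLR4, the lipopolysaccharide receptor, higher and the 18 near NLRP1 split 9 and 9.

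Complement and antimicrobial proteins had 22 sites, 2 higher and 20 lower in MSG (median difference -30.8 points, 2 with no overlap), with 12 of 14 near MBL2 lower and all 5 near C9 lower. Over the 12 near MBL2 the lowest, median and highest cow were at 31.2, 37.7 and 75.0% in MSG and at 64.2, 84.2 and 90.3% in MRG. Adhesion and migration had 49 sites, 16 higher and 33 lower (median difference -28.2 points, 0 with no overlap), including 24 near the integrin gene ITGA6, of which 15 were lower. Antigen presentation had 5 sites, 2 higher and 3 lower (median difference -21.3 points), of which 4 lay near BOLA-NC1, a non-classical class I gene.

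Markers of blood cell types were each carried by a few genes. T and NK cell markers had 32 sites, 27 higher and 5 lower in MSG (median difference 30.2 points, 0 with no overlap), 19 of them near THEMIS, a T cell selection gene, all higher (80.0% ± 16.6 in MSG and 47.6% ± 32.2 in MRG, mean ± SD of 6 cows each). Near ICOS, 6 of 8 sites were higher, while all 3 near CD96 were lower. B cell markers had 30 sites, 2 higher and 28 lower (median difference -41.4 points, 0 with no overlap), 28 of them near CD38, of which 26 were lower (18.6% ± 21.9 in MSG and 58.3% ± 32.7 in MRG). Monocyte and granulocyte markers had 22 sites, 16 higher and 6 lower (median difference 27.3 points, 1 with no overlap), near the scavenger receptor genes MSR1 (18) and MARCO (4). Erythroid and platelet markers had 66 sites, 46 higher and 20 lower (median difference 39.7 points, 0 with no overlap), all near GYPC. Their part in the differences elsewhere in the class was not tested.

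Transcription factors of blood had 306 sites, near 25 genes, split 162 higher and 144 lower in MSG (median difference 22.2 points, 6 with no overlap). RUNX3, a factor of T and NK cell development, had 35 of 41 sites lower in MSG, at 29.9% ± 10.5 in MSG and 63.1% ± 16.9 in MRG (mean ± SD of 6 cows each). MYB, needed for blood stem and progenitor cells, had 26 of 30 lower, at 24.3% ± 14.5 in MSG and 68.3% ± 23.8 in MRG, and NFIA had 16 of 29 lower. The split over the list was thus close to that of the class, while single genes leaned to one side.

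The lists with most sites lay outside the immune system. Developmental transcription factors had 602 sites near 46 genes, 327 higher and 275 lower in MSG (median difference 24.2 points, 16 with no overlap), with SOX14 (60 of 73 lower), BARHL2 (47 of 50 higher) and NKX6-1 (42 of 49 higher) holding the most of any gene in the list. Neural adhesion and synapse genes had 628 sites near 62 genes, 336 higher and 292 lower (median difference 22.5 points, 11 with no overlap), with SLITRK6, SLITRK1 and SLITRK5, neuronal transmembrane proteins, holding 60, 53 and 36. Both lists were close to the class in direction and in the share with no overlap (2.66% and 1.75%).

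Mammary and milk genes had 96 sites, 47 higher and 49 lower in MSG (median difference -19.4 points), and 7 (7.29%) had no overlap, 5 near NPFFR2, 1 near GC and 1 near ESR1. Near NPFFR2, a neuropeptide FF receptor, 35 of 53 sites were lower in MSG, and the cows were at 3.17, 49.6 and 82.3% in MSG and at 77.8, 81.2 and 85.8% in MRG. The 7 higher sites of 12 near ESR1 averaged 88.9% ± 5.86 in MSG and 49.8% ± 18.2 in MRG. Imprinted genes had 21 sites, 13 higher and 8 lower (median difference 32.1 points, 1 with no overlap), and genes of DNA methylation had 15, 4 higher and 11 lower (median difference -25.4 points, 0 with no overlap), near ZBTB38, MBD2 and others.

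Sites with no cow at 0 could be followed near 12 listed genes that had at least 5 of them. Near RUNX3, 16 of 20 such sites were lower in MSG, at 37.3, 47.1 and 93.1% in the lowest, median and highest MSG cow and at 57.5, 94.1 and 98.2% in MRG cows. Near MYB, 6 of 8 were lower, at 37.8, 40.5 and 72.6% in MSG and at 70.2, 90.4 and 96.8% in MRG. Near CXCR4, 11 of 15 were higher, at 95.2, 96.5 and 97.8% in MSG and at 42.4, 57.1 and 97.9% in MRG. Near NKX6-1, 9 of 10 were higher, at 89.3, 92.3 and 93.6% in MSG and at 38.1, 66.0 and 87.8% in MRG. The majority direction of these sites was that of all class sites near the gene for 8 of the 12 genes. It turned for CXCR4, for MSR1 (6 of 7 lower), for NPFFR2 (6 of 9 higher) and for SOX14 (7 of 12 higher).

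Averaged over the class, the mean of a cow was 52.2 to 54.4% in MSG with a median of 53.3%, and 51.2 to 52.9% in MRG with a median of 51.9%. The group means were 53.3% ± 0.763 in MSG and 52.0% ± 0.666 in MRG (mean ± SD of 6 cows each). MSG was higher by 1.28 points (two-sided exact permutation p 0.0130, Benjamini-Hochberg adjusted 0.0260 over 4 comparisons), and 1 MSG cow and 2 MRG cows overlapped in range. Without sites with a cow at 0 the difference was 5.59 points (exact permutation p 0.00216). Both averages are taken over sites selected for differences between these same cows, and leaving out sites with a cow at 0 selects further on the same values. Sites higher in MSG made up 52.3% of the class and 58.9% of its sites with no cow at 0. Both differences thus depend on which sites were kept, and their p-values are no independent evidence. The share of sites at exactly 0 was 22.0% ± 1.05 in MSG and 22.2% ± 0.684 in MRG (exact permutation p 0.699, adjusted 0.699).

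Set against the intergenic sites up to 50 kb, the class minus those sites stood at -1.30 ± 0.417 points within MSG cows and -0.456 ± 0.383 points within MRG cows (SD, n = 6 each). The MSG minus MRG difference of this contrast was -0.846 points, lower in 6 of 6 MSG cows than in any MRG cow (exact permutation p 0.00216, the smallest that 6 against 6 can give, adjusted 0.00866). It turned to 1.42 points, with the same p of 0.00216, when sites with a cow at 0 were left out, so its direction rests on which sites are averaged. Both classes hold only sites selected for differences between these same cows. Sites higher in MSG made up 52.3% of the class and 53.4% of the sites up to 50 kb. The p-values of this contrast are therefore no independent evidence that the distance classes differ. Set against the sites beyond 200 kb, the class stood 1.94 ± 0.659 points higher in MSG and 2.33 ± 0.417 points higher in MRG. That contrast differed by -0.393 points (exact permutation p 0.249, adjusted 0.332), which did not pass.

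**Figure D5:**
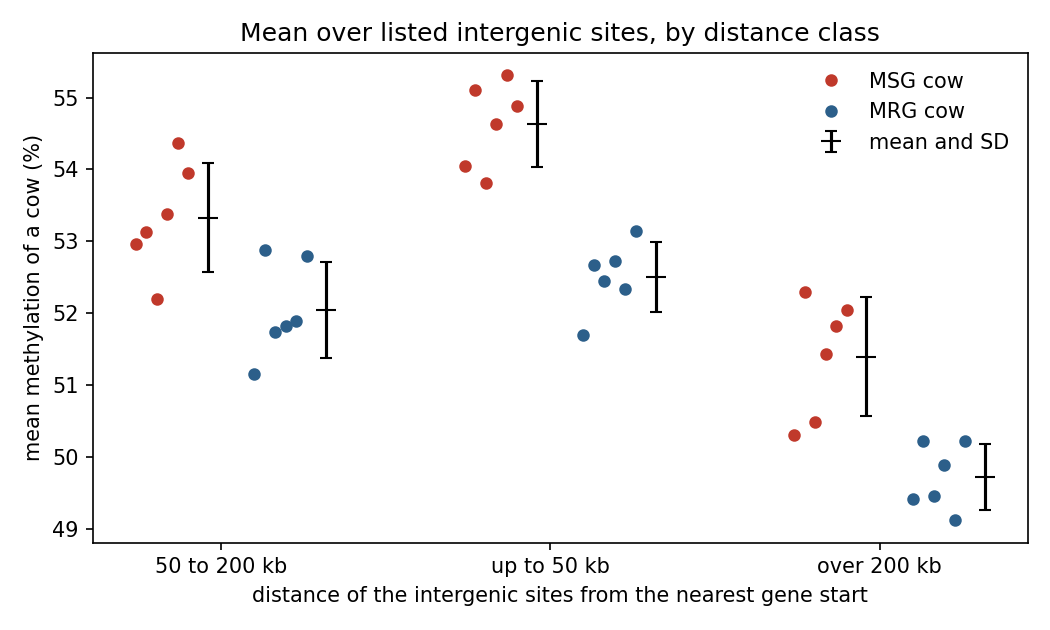
Mean methylation of each cow (y axis, percent, axis not starting at 0) over the listed intergenic sites of 3 distance classes (x axis), MSG in red left of MRG in blue, with the mean and SD of each group. MSG averages 53.3% and MRG 52.0% in the class of 50 to 200 kb, and both groups are lower in the sites beyond 200 kb.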

How the data were processed

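The authors deposited percent methylation per cow for single CpG cytosines and for tiles of 500 bases, with their own difference, p-value and q-value and the nearest gene, per the file headers. The submitters' processing notes name ARS-UCD1.2 as build and fastp 0.23.1, Bismark, DRAGEN and ChIPseeker 1.32.1 as tools. Not given in the sources used here is which test gave the authors' q-values. The deposited tables hold rows past the authors' thresholds only, with at least 5 cows per group. The tile table has 36 coverage and read columns whose names carry numbers that could not be tied to cows. They were not used, depth is therefore unknown here, and the logistic test on reads was replaced by limma on percent values.

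The members and the gene lists were chosen with earlier results of these data known. limma 3.58.1 (R 4.3.3) was fitted over all rows of each table, without covariates, with Benjamini-Hochberg adjustment and a threshold of 0.05. It was also run on simulated independent normal values. These lack the zeros, separate levels and linked sites of the data, so that run does not bear on the calls above. Single values per cow were compared with two-sided exact permutation tests over 924 regroupings. Named by rule in each direction were 6 runs, 5 sites and 4 tiles. The runs had the most sites in their direction among runs of the class with a symbol nearest to most of their sites. The sites and tiles had the largest differences among those without overlap, and the sites also had all cows and no zero. The 8 genes with most sites and, in each of the 17 lists, up to 3 genes with at least 3 sites were also picked by rule. Not all of the genes picked from the lists are described above. Replicate numbers name cows in record order and pair none, and p-values measure the spread between cows. No genome of the build was used, so no sequence is shown.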

Additional observations from a re-analysis of the deposited data

Results flagged for a closer look

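Of 68 groups of cows examined, 10, all of them in named runs, sites or tiles, had a cow far from the rest of its group by Dixon's criterion. Chance meets it in about 1 in 20 groups of normally distributed values. The values here sat at separate levels, often with cows tied at 0 or 100%, so that rate cannot be set against these 10. MSG replicate 6 stood apart in both runs near LOC536229, at 41.4 and 40.7%, while the nearest MSG cow was at 0 and 1.90%. MSG replicate 6 was also apart in the tile on chromosome 22, at 30.0%, and MRG replicate 3 was apart there on the other side, at 60.2%.

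MRG replicate 3 stood at 43.7% in the run near LOC112441899, where the other MRG cows were at 0.311% or less. MSG replicate 1 stood at 56.9% in the run near LOC107132535, below the next MSG cow at 89.6%. MRG replicate 5 stood at 81.0% in the tile near LOC505199, above the next MRG cow at 48.8%. Smaller gaps were marked at single sites where every other cow of the group was at 100%. These were MRG replicate 6 near C19H17orf67 at 92.9%, MSG replicate 3 near PARM1 at 90.0%, and MSG replicate 3 near GPAT3 at 95.7%. The part of sequence variants or cell proportions in these values was not tested.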

How the results depend on the processing

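Sites higher in MSG made up 58.9% without sites with a cow at 0, 53.0% with 1 vote per run, 52.9% at 50 to 100 kb and 51.7% at 100 to 200 kb, and it turned to 48.5% for differences of at least 40 points. The limma site count of 0 became 6398 over sites with no cow at 0, and 0 to 10 with a cow left out (1 without MSG replicate 4, 10 without MSG replicate 6). The count of non-overlapping sites was 639 of the 34622 sites with all 12 cows, and 503 of the 8589 sites with no cow at 0. These counts come from smaller sets, and no share over all listed sites is given for them. The run count of 422 of 1160 (36.4%) became 194 of 1960 with a gap of 5 kb (9.90%, beside 9.04% of all runs so built), 220 of 3469 with 3 or more sites per run (6.34%, beside 6.36%), 121 of 200 with 10 or more (60.5%, beside 57.7%), 94 of 95 in runs of sites with no cow at 0 (98.9%, beside 97.2%), 63 on the logit scale, 0 by the exact permutation test, and 158 to 405 with a cow left out. The tile count of 218 became 34 by the exact permutation test and 92 to 194 with a cow left out. No share over all runs or tiles is given for the logit, permutation and leave-one-out counts, so they have no background. The contrast with the sites up to 50 kb reversed to 1.42 points without cows at 0. The contrast with the sites beyond 200 kb reversed to 0.225 points without them and to 0.0509 points with 1 vote per run. The zero share difference ran from -0.497 to 0.00161 points with a cow left out. The mean over the class kept its direction in all 16 alternatives, and was 5.59 in place of 1.28 points without sites with a cow at 0. Its unadjusted exact permutation p stayed below 0.05 in each, at most 0.0303, without MRG replicate 1. The adjustment over 4 comparisons was not repeated for the alternatives, so their side of the threshold after it is not known. The cause was not tested for any of these, except that leaving out a cow or sites makes the set smaller. No paired analysis was possible because the replicate numbers follow record order and pair no cows.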
